A study of Mus musculus with 8 samples.

Results

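Aminoacyl-tRNA synthetases join each amino acid to its transfer RNA before translation. The 36 genes described here are those rows of the count table whose Ensembl identifier, without its version, carries a synthetase symbol, out of 55414 identifiers in all: 20 encode cytosolic enzymes and 16 encode mitochondrial enzymes, whose symbols end in 2. The libraries were made from WT iBMDM, immortalized macrophages derived from mouse bone marrow. DSF+LPS cells received disulfiram (DSF, a drug used against alcohol dependence) at 5 μM for 0.5 h, followed by lipopolysaccharide (LPS, the bacterial ligand of TLR4) at 1 μg/ml for 4 h. DSF cells received the drug followed by water, LPS cells received the solvent DMSO followed by LPS, and control cells received DMSO followed by water. Each group held 2 libraries, and the study asked whether the drug blocks TLR4 signalling. Whether the samples of a group came from separate cultures is not stated, and p-values cover no more than the spread between them, which could be technical.

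Cytosolic and mitochondrial translation use separate sets of synthetases, both encoded in the nucleus, and a few genes, among them Gars and Kars, give rise to enzymes of both compartments. Of the cytosolic genes, 8 encode members of the multi-synthetase complex (Dars, Eprs, Iars, Kars, Lars, Mars1, Qars and Rars), which is held together by the scaffold proteins of Aimp1, Aimp2 and Eef1e1. When uncharged tRNAs build up or other stresses act, kinases of the integrated stress response slow translation initiation while the transcription factor ATF4 is made, and several cytosolic synthetase genes are known ATF4 targets in mouse and human cells. Mammalian mitochondria have no glutaminyl-tRNA synthetase: Ears2 charges that tRNA with glutamate, and an amidotransferase converts it.

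Library totals ran from 17822041 to 21694922 counts, and all 36 genes were among the 16304 that passed the filter on low counts. Levels are CPM (counts scaled to library size by TMM), with SD over n = 2, and "rose" or "fell" means an adjusted p under 0.05 by edgeR's quasi-likelihood test. The 10 macrophage markers summed to 2622 to 2749 CPM in DSF+LPS, 2191 to 2378 CPM in DSF, 2873 to 3031 CPM in LPS and 2237 to 2288 CPM in control, with no marker at 0. These sums hide changes of single macrophage markers. In DSF against control 4 rose and 4 fell (log2 fold change -1.93 to 2.43), where 31.0% of all genes rose and 27.1% fell. In DSF+LPS against LPS 3 rose and 6 fell (-2.36 to 4.19), where 33.7% of all genes rose and 31.6% fell. Lists of markers of other cell types summed to at most 4.44 CPM in any library. As treatment checks, Hmox1, a gene of the oxidative stress response, averaged 6473 ± 409 CPM in DSF and 185 ± 5.04 CPM in control, and the cytokine gene Tnf averaged 841 ± 11.95 CPM in LPS and 37.5 ± 0.716 CPM in control.

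Cytosolic synthetase transcripts were the more abundant ones in every group. The median CPM per kilobase of transcript of the cytosolic and mitochondrial genes was 97.96 and 9.48 in DSF+LPS, 91.8 and 10.1 in DSF, 83.5 and 10.1 in LPS and 73.4 and 11.9 in control. Nars, the asparagine enzyme, was the most abundant member per kilobase in 3 groups, with 355 ± 13.4 CPM per kb in DSF+LPS, 325 ± 3.35 CPM per kb in DSF and 193 ± 3.55 CPM per kb in LPS. In control Gars, the glycine enzyme, was highest, with 154 ± 1.55 CPM per kb in control. The least abundant member per kilobase in each group was Wars2, the mitochondrial tryptophan enzyme, with 3.496 ± 0.429 CPM per kb in DSF+LPS and 3.097 ± 0.0328 CPM per kb in control. Lars2, the mitochondrial leucine enzyme, had 89.3 ± 28.4 CPM per kb in DSF+LPS and 34.4 ± 3.88 CPM per kb in control.

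Disulfiram without LPS raised most cytosolic synthetase mRNAs and lowered most mitochondrial ones. Among the 20 cytosolic genes 12 rose and 5 fell (60% and 25%), where 31.0% of all genes tested rose and 27.1% fell. Among the 16 mitochondrial genes 3 rose and 9 fell (18.75% and 56.25%). The share of cytosolic genes that fell was thus near that of all genes. The median log2 fold change was 0.42 over the cytosolic genes and -0.43 over the mitochondrial genes, against 0.05 over all genes tested. With library size alone in place of TMM the median of all genes shifted by -0.10, and 11 cytosolic genes rose and 6 fell, and 2 mitochondrial genes rose and 11 fell. In bulk RNA, fewer cells of a type and less RNA per cell cannot be told apart.

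Of the 20 cytosolic genes 4 rose by at least 2-fold with the drug, a share near the 17.6% of all genes that did. These were Sars, Aars, Cars and Nars, which charge the tRNAs for serine, alanine, cysteine and asparagine. Sars (ENSMUSG00000068739) had 540.4 and 553 CPM in DSF, against 186 and 186 CPM in control. Aars (ENSMUSG00000031960) had 609.5 and 648 CPM in DSF, against 220.02 and 221 CPM in control. Replicates lay close together and far from those of the other group, with a fold of 2.94 for Sars (log2 fold change 1.55, SE 0.061, adjusted p = 5.45e-11) and of 2.85 for Aars (log2 fold change 1.51, SE 0.063, adjusted p = 9.44e-11). Cars had 234 and 249 CPM in DSF, against 90.6 and 86.7 CPM in control (log2 fold change 1.44, SE 0.076, adjusted p = 1.005e-09). Nars had 898 and 885 CPM in DSF, against 411 and 383 CPM in control (log2 fold change 1.17, SE 0.061, adjusted p = 1.02e-09). None of these 4 enzymes belongs to the multi-synthetase complex, and the DSF and control values of each gene did not overlap. Here and below, called genes were picked by the size of their change. With 2 libraries per group, a lack of overlap in such genes is nearly given and adds no support. The share of all genes without overlap was not counted.

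The next rises were smaller. Gars had 621 and 643 CPM in DSF, against 365 and 369.9 CPM in control (log2 fold change 0.78, SE 0.06, adjusted p = 5.62e-08). Rars, the arginine enzyme of the complex, had 508 and 489.9 CPM in DSF, against 303 and 307 CPM in control (log2 fold change 0.71, SE 0.062, adjusted p = 2.297e-07). Iars (isoleucine), Yars (tyrosine), Eprs (the joint glutamate and proline enzyme), Tars (threonine) and Lars (leucine) rose by log2 values of 0.70, 0.64, 0.48, 0.47 and 0.37. Wars, the tryptophan enzyme, rose by 0.17 (adjusted p = 0.0484). That call was lost without any 1 of the control, DSF or LPS libraries, and with library size alone in place of TMM, where the value was 0.068.

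**Figure D1:**
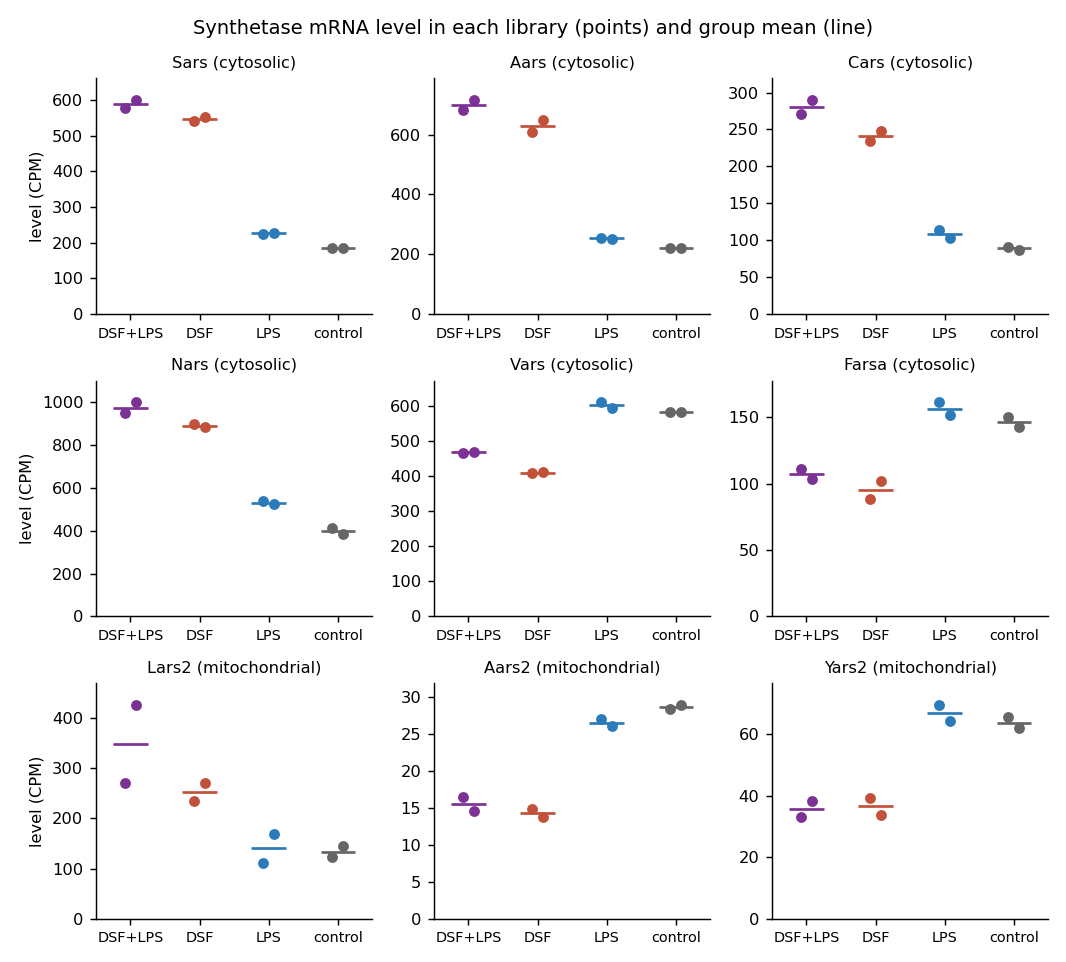
Levels in CPM (vertical axes, from 0) of 9 synthetase genes in each library (points, 2 per group) with the group mean (line), for DSF+LPS, DSF, LPS and control. Sars, Aars, Cars and Nars stand higher in both drug groups than in LPS and control, Vars, Farsa, Aars2 and Yars2 stand lower, and the DSF+LPS replicates of Lars2 lie apart, with 269 and 426 CPM in DSF+LPS.

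The 5 cytosolic genes that fell with the drug were Farsa (phenylalanine), Vars (valine), Dars (aspartate), Kars (lysine) and Hars (histidine). The cytosolic phenylalanine enzyme is built from α and β chains, encoded by Farsa and Farsb. Farsa had 88.1 and 102 CPM in DSF, against 150.1 and 143 CPM in control (log2 fold change -0.62, SE 0.084, adjusted p = 1.699e-05). Farsb had 136 and 133 CPM in DSF, against 134 and 136 CPM in control, and was not called (a log2 difference of -0.0046, SE 0.068, adjusted p = 0.958). The DSF and control values overlapped for Farsb and not for Farsa, and the difference between these genes was not tested. Vars had 408 and 411 CPM in DSF, against 581 and 581 CPM in control (log2 fold change -0.51, SE 0.057, adjusted p = 3.19e-06). Dars, Kars and Hars fell by 0.34, 0.30 and 0.25 on the log2 scale, while Farsb, Qars (glutamine) and Mars1 (methionine) were not called, the last 2 at -0.093 and 0.11.

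Enzymes of the multi-synthetase complex and the other cytosolic enzymes were counted apart. In the complex 4 of 8 genes rose and 2 fell (50% and 25%), with a median log2 fold change of 0.24, and of the 12 other cytosolic genes 8 rose and 3 fell (66.7% and 25%), with a median of 0.56. Both shares of falls were near the 27.1% of all genes, and 31.0% of all genes rose. Complex enzymes took 37.2% and 36.9% in DSF+LPS, 38.1% and 37.8% in DSF, 42.6% and 42.6% in LPS, and 43.2% and 43.7% in control of the cytosolic synthetase counts. By structural class, 6 of 9 class I cytosolic genes rose and 1 fell (66.7% and 11.1%), and 5 of 10 class II genes rose and 4 fell (50% and 40%), leaving out Eprs, which joins an enzyme of each class. The scaffold gene Aimp2 fell, with a log2 fold change of -0.41 (adjusted p = 7.51e-04), and Aimp1 and Eef1e1 were not called, at 0.045 and 0.049 (below 0 with library size alone).

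Among the mitochondrial genes that fell, the alanine gene Aars2 had the largest change. Aars2 (ENSMUSG00000023938) had 14.9 and 13.7 CPM in DSF, against 28.5 and 28.99 CPM in control (log2 fold change -1.01, SE 0.11, adjusted p = 2.95e-06). Yars2 (tyrosine) had 39.3 and 33.8 CPM in DSF, against 65.4 and 61.9 CPM in control (log2 fold change -0.80, SE 0.10, adjusted p = 9.11e-06). Both genes had DSF values well below their control values. Hars2 (histidine) had 21.5 and 17.04 CPM in DSF, against 36.3 and 27.03 CPM in control (log2 fold change -0.71, SE 0.15, adjusted p = 7.41e-04). Mars2, Rars2, Vars2, Cars2, Tars2 and Iars2 fell by 0.68, 0.67, 0.62, 0.47, 0.43 and 0.42 on the log2 scale. Nars2, Pars2, Sars2 and Wars2 were not called, at -0.21, -0.33, -0.18 and 0.13.

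The 3 mitochondrial genes that rose were Lars2, Fars2 (phenylalanine) and Ears2 (glutamate). Lars2 (ENSMUSG00000035202) had 235 and 271 CPM in DSF, against 123 and 145 CPM in control (log2 fold change 0.92, SE 0.19, adjusted p = 7.98e-04). Fars2 had 25.7 and 24.3 CPM in DSF, against 14.4 and 16.8 CPM in control (log2 fold change 0.68, SE 0.11, adjusted p = 1.29e-04). Neither gene's groups overlapped. Ears2 had 18.97 and 17.8 CPM in DSF, against 13.97 and 13.9 CPM in control (log2 fold change 0.40, SE 0.12, adjusted p = 0.0123). Its call was lost with library size alone and without either control library or the first DSF library (largest adjusted p 0.0896).

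For 13 amino acids a cytosolic and a mitochondrial gene were set side by side. Left out were phenylalanine, whose cytosolic enzyme has α and β chains, and glutamate and proline, whose cytosolic enzymes are joined in Eprs. In DSF against control Farsa fell (-0.62) and Farsb was not called (-0.0046), while Fars2 rose (0.68), against the order of most pairs. Eprs and Ears2 rose by 0.48 and 0.40, and Pars2 was not called. In DSF against control the log2 fold change of the cytosolic gene lay above that of its mitochondrial partner in 12 of 13 pairs. The count was 11 of 13 in DSF+LPS against LPS. It was also 12 of 13 in LPS against control, so this order was not particular to the drug. In 6 pairs of DSF against control (alanine, cysteine, isoleucine, arginine, threonine and tyrosine) the cytosolic gene rose and the mitochondrial gene fell. That held for 7 pairs in DSF+LPS against LPS and 2 in LPS against control. The pairs named next are again from DSF against control. Both fell for histidine and valine. For leucine both rose and the order was turned round, Lars by 0.37 and Lars2 by 0.92. As a ratio of levels per kilobase, Aars over Aars2 was 26.2 in DSF+LPS, 25.6 in DSF, 5.56 in LPS, and 4.47 in control. Lars over Lars2 was 0.736 in DSF+LPS, 0.962 in DSF, 1.61 in LPS, and 1.41 in control. Lars2 thus exceeded Lars per kilobase of principal transcript in both drug groups, an order that depends on the length used. The principal transcript and all exons together measure 3894 and 11089 bp for Lars2, and 3980 and 5368 bp for Lars. By exon length Lars would stay above Lars2.

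**Figure D2:**
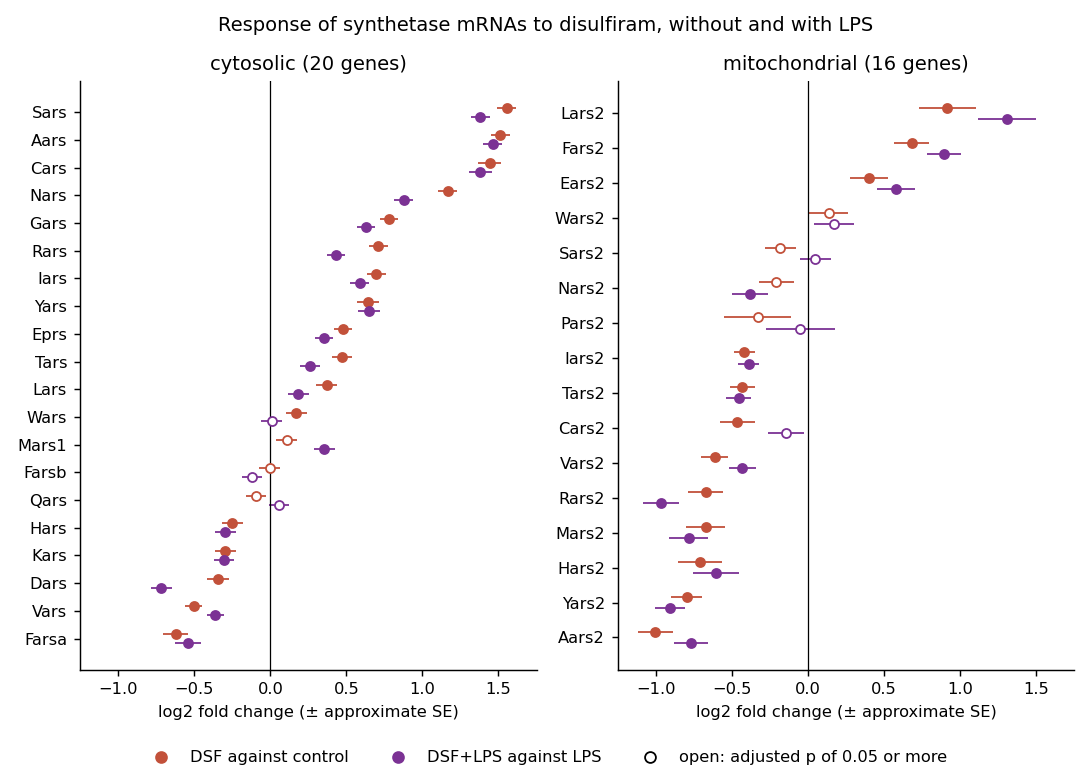
Log2 fold change (horizontal axis) with approximate SE of 20 cytosolic and 16 mitochondrial synthetase genes for DSF against control and DSF+LPS against LPS; open points have an adjusted p of 0.05 or more. Cytosolic genes spread from -0.62 to 1.55 in DSF against control, and 12 of the 16 mitochondrial points of that comparison lie left of 0.

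Promoter windows were examined for the type of site that ATF4 binds with C/EBP partners. The motif searched was TGATGNAA, with N any base, on both strands of windows that run from 250 bases before to 50 bases after each gene's start in RefSeq (GRCm38.p6), and its stricter form TGATGCAA is contained in it. Of 32817 windows of all genes 1303 hold the motif (3.97%), and 294 hold the stricter form (0.896%). Windows were at hand for 27 of the 36 synthetase genes, 13 cytosolic with 1 window each and 14 mitochondrial, of which Aars2 has 2 overlapping windows, and not for Cars, Hars, Lars, Nars, Rars, Vars, Wars, Hars2 and Pars2. The motif is in the windows of 5 of the 13 cytosolic genes (38.5%) and of 0 of the 14 mitochondrial genes. Its 5 genes are Aars, Gars, Iars, Tars and Yars, which are among the 7 cytosolic genes with a window that rose with the drug; the windows of Sars and Eprs, which rose too, do not hold these letters. No window of the 3 cytosolic genes that fell (Dars, Farsa and Kars) or of the 3 not called (Farsb, Mars1 and Qars) holds the motif. Only 3.97% of all windows hold it, so its absence in groups this small is not a trait of these genes. The same applies to the 14 mitochondrial genes. Of the windows with the motif, those of the 4 genes with the largest rises are printed to show where it lies, 5′ to 3′ along the gene, with the motif in capitals as it reads on that strand. All 4 genes are on the plus strand of GRCm38.p6: Aars at chr8:111033592-111033891, Gars at chr6:55037751-55038050, Iars at chr13:49681880-49682179 and Yars at chr4:129189653-129189952.
Aars: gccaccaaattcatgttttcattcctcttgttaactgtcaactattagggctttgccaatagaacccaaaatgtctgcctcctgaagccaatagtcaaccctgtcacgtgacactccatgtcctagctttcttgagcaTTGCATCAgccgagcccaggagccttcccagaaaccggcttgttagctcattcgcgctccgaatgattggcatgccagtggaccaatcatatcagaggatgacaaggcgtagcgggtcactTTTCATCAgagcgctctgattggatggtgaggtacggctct
Gars: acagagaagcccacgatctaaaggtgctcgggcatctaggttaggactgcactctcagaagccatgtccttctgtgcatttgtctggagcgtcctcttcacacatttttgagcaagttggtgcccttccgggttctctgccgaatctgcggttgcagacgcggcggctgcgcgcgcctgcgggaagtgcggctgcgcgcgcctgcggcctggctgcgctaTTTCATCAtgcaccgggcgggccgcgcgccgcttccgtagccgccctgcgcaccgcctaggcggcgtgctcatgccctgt
Iars: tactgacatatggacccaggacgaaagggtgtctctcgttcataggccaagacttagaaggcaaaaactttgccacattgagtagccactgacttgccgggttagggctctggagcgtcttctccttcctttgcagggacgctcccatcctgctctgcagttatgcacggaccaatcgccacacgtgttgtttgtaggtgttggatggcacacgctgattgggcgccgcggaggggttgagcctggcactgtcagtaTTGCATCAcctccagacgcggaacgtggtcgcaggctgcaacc
Yars: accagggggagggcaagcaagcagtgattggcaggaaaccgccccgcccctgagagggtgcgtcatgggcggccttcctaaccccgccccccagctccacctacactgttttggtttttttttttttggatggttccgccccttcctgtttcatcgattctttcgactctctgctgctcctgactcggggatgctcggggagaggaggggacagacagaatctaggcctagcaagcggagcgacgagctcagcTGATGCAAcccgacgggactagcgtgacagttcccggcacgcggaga

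In these windows the leftmost base of the motif lies 112 bases before the annotated start and 9 bases after it in Aars, 30 bases before it in Gars, and 7 and 3 bases after it in Iars and Yars. In Tars, not printed, it lies 15 bases before. The Yars match reads along the gene, and the others read on the opposite strand. The stricter form is in Aars (its match before the start), Iars, Tars and Yars, while the match in Gars and the match after the start in Aars read TGATGAAA. A match describes letters in a window whose place depends on the annotated start, and no binding was measured.

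**Figure D3:**
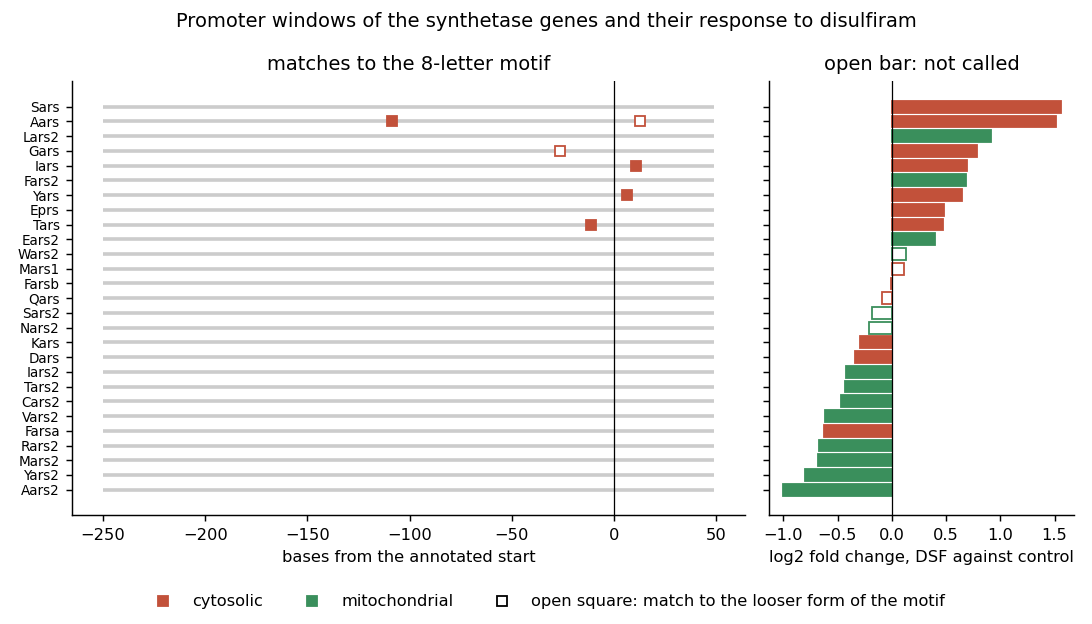
Left, position in bases of motif matches (squares) relative to the annotated start in promoter windows of 27 genes (grey lines, 1 of the 2 windows of Aars2), with open squares for matches to the looser form; right, log2 fold change of each gene in DSF against control, with open bars for genes not called. The matches lie in 5 windows of cytosolic genes, whose log2 fold changes run from 0.47 to 1.51.

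Disulfiram given before LPS was compared with LPS alone, in libraries that are not those of the comparison above. In DSF+LPS against LPS 33.7% of all genes rose and 31.6% fell. Among the cytosolic genes 12 rose and 5 fell (median log2 fold change 0.31, against 0.042 over all genes), and among the mitochondrial genes 3 rose and 9 fell (median -0.39). By at least 2-fold, 3 of the 20 cytosolic genes rose, no larger a share than the 19.3% of all genes. Of the 12 cytosolic genes that rose in each drug comparison 11 were shared; Wars was called without LPS (0.0088 with LPS, not called) and Mars1 was called with LPS. The 5 cytosolic genes that fell were shared, as were the rises of Ears2, Fars2 and Lars2 and 8 of the 9 mitochondrial falls, Cars2 being called without LPS and Nars2 with it. The share of all genes called alike in both drug comparisons was not counted. This agreement can therefore not be read as particular to the synthetases.

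Aars had 681 and 716 CPM in DSF+LPS, against 255 and 252 CPM in LPS (log2 fold change 1.46, SE 0.063, adjusted p = 6.33e-11). Sars had 577 and 601 CPM in DSF+LPS, against 224 and 228 CPM in LPS (log2 fold change 1.38, SE 0.061, adjusted p = 8.81e-11). Cars had 272 and 290.2 CPM in DSF+LPS, against 113 and 103 CPM in LPS (log2 fold change 1.38, SE 0.075, adjusted p = 8.83e-10). In these 3 genes both DSF+LPS libraries stood far above both LPS libraries. Nars had 948 and 1000.5 CPM in DSF+LPS, against 537 and 523 CPM in LPS (log2 fold change 0.88, SE 0.061, adjusted p = 1.24e-08). Yars had 301 and 289 CPM in DSF+LPS, against 192 and 184 CPM in LPS (log2 fold change 0.65, SE 0.071, adjusted p = 1.52e-06). Of the cytosolic genes Dars fell the most, with 107 and 108 CPM in DSF+LPS, against 175 and 179 CPM in LPS (log2 fold change -0.72, SE 0.072, adjusted p = 5.98e-07). Its groups did not overlap. Farsa had 111 and 103 CPM in DSF+LPS, against 161 and 151 CPM in LPS (log2 fold change -0.54, SE 0.083, adjusted p = 4.69e-05). Farsb had 139 and 134 CPM in DSF+LPS, against 151 and 146 CPM in LPS, and was not called (a log2 difference of -0.12, SE 0.068, adjusted p = 0.127). With library size alone Farsb fell, at -0.17 (adjusted p = 0.0361), and its groups did not overlap.

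Among the mitochondrial genes, Lars2 had 269 and 426 CPM in DSF+LPS, against 111 and 169 CPM in LPS (log2 fold change 1.31, SE 0.19, adjusted p = 2.79e-05). The replicates of Lars2 lay well apart in both groups, yet the groups did not overlap. Rars2 had 18.4 and 15.01 CPM in DSF+LPS, against 31.5 and 34.00 CPM in LPS (log2 fold change -0.97, SE 0.12, adjusted p = 4.54e-06). Yars2 had 33.2 and 38.1 CPM in DSF+LPS, against 69.6 and 64.4 CPM in LPS (log2 fold change -0.91, SE 0.10, adjusted p = 1.902e-06). Fars2 had 31.8 and 33.1 CPM in DSF+LPS, against 17.6 and 17.3 CPM in LPS (log2 fold change 0.89, SE 0.11, adjusted p = 6.39e-06). No values overlapped between the groups in these genes. Mars2, Aars2, Hars2, Tars2, Vars2, Iars2 and Nars2 fell by 0.79, 0.77, 0.61, 0.46, 0.43, 0.39 and 0.38 on the log2 scale. The Nars2 call was lost without the first LPS library (adjusted p = 0.0508), and the Lars call (0.18) was lost in 7 of 14 alternatives, among them each control and each LPS library left out.

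Mars1 had 262 and 252 CPM in DSF+LPS, against 210.4 and 191 CPM in LPS (log2 fold change 0.35, SE 0.069, adjusted p = 3.91e-04). Its exons overlap those of Ddit3, a stress-induced gene on the other strand, by 68 bp, and how the counting treated strand is unknown here. Ddit3 averaged 91.1 ± 11.3 CPM in DSF+LPS, 82.9 ± 9.54 CPM in DSF, 10.5 ± 2.698 CPM in LPS and 8.22 ± 0.144 CPM in control, and its part in the Mars1 values was not tested. Hars and Hars2 overlap by 195 bp on opposite strands. Also on the other strand, Cars2 shares 422 bp with Naxd, Ears2 89 bp with Ubfd1, and Fars2 115 bp with Lyrm4 and 501 bp with Nrn1. Over all libraries Cars2 and Naxd held 5053 and 6916 counts, and Ears2 and Ubfd1 2697 and 11068. Fars2 held 3658, Lyrm4 2302 and Nrn1 74. The part of these neighbours in the values of Cars2, Ears2 and Fars2 was not tested. Iars2 shares 2034 bp, 22.9% of its exon bases, with Rab3gap2 on the other strand, so its fall is uncertain as to gene. Exosc6 shares 1326 bp with Aars exons on the same strand and is listed at 0 in every library, so that reads of both genes may stand under Aars. Iars and Gm4849 match over 1656 bp at 96.0% identity, and Gm4849 held 910 counts over all libraries.

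LPS without the drug moved the synthetase mRNAs by small amounts. In LPS against control 15.2% of all genes rose and 13.8% fell. Of the 20 cytosolic genes 11 rose (55%) and 0 fell, and of the 16 mitochondrial genes 0 rose and 3 fell (18.75%, near the share of all genes). At an unadjusted p under 0.05 in edgeR the counts of 0 were 0 for cytosolic falls and 0 for mitochondrial rises, and DESeq2 called 0 and 0. The cytosolic median log2 fold change was 0.20, against 0.017 over all genes. With library size alone in place of TMM the median of all genes shifted by -0.16 on the log2 scale, 12 cytosolic genes lay above 0 and 8 below, and 2 (Iars and Nars) rose. With either control library or either LPS library left out, 4 or 5 cytosolic genes rose.

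Nars had 537 and 523 CPM in LPS, against 411 and 383 CPM in control (log2 fold change 0.42, SE 0.061, adjusted p = 8.66e-05). Iars had 387 and 375 CPM in LPS, against 309 and 299 CPM in control (log2 fold change 0.33, SE 0.061, adjusted p = 8.51e-04). In both genes the LPS and control values did not overlap. Tars had 273 and 278 CPM in LPS, against 215 and 221 CPM in control (log2 fold change 0.34, SE 0.068, adjusted p = 0.00153). Sars had 224 and 228 CPM in LPS, against 186 and 186 CPM in control (log2 fold change 0.28, SE 0.061, adjusted p = 0.0026). The calls of Tars and Sars were lost with library size alone, at 0.18 and 0.12. Cars had 113 and 103 CPM in LPS, against 90.6 and 86.7 CPM in control (log2 fold change 0.28, SE 0.076, adjusted p = 0.0108). Lars had 229.9 and 230.5 CPM in LPS, against 192 and 193 CPM in control (log2 fold change 0.26, SE 0.069, adjusted p = 0.0109). Both genes were higher in both LPS libraries. Cars, Lars, Gars, Rars, Wars, Aars and Hars rose by 0.28, 0.26, 0.22, 0.22, 0.22, 0.20 and 0.20, and each of these 7 calls was lost with library size alone. Wars, known as an interferon-induced gene in human cells, had 173 and 169.98 CPM in LPS, against 148 and 148 CPM in control.

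Hars2 had 24.3 and 22.9 CPM in LPS, against 36.3 and 27.03 CPM in control (log2 fold change -0.42, SE 0.14, adjusted p = 0.0379). Cars2 had 31.9 and 27.6 CPM in LPS, against 39.4 and 38.2 CPM in control (log2 fold change -0.38, SE 0.11, adjusted p = 0.0187). Vars2 had 53.8 and 53.1 CPM in LPS, against 62.2 and 65.1 CPM in control (log2 fold change -0.25, SE 0.087, adjusted p = 0.0408). In all 3 genes the LPS values lay below the control values. The Hars2 call was lost without the first control library (-0.20) or either LPS library, the Cars2 call without either control library or the second LPS library, and the Vars2 call without any 1 of these 4 libraries. The scaffold gene Eef1e1 rose, with 129 ± 3.18 CPM in LPS and 76.5 ± 1.08 CPM in control (log2 fold change 0.75, SE 0.076, adjusted p = 1.93e-06), and Aimp1 and Aimp2 were not called, at 0.056 and 0.093 (below 0 with library size alone).

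**Figure D4:**
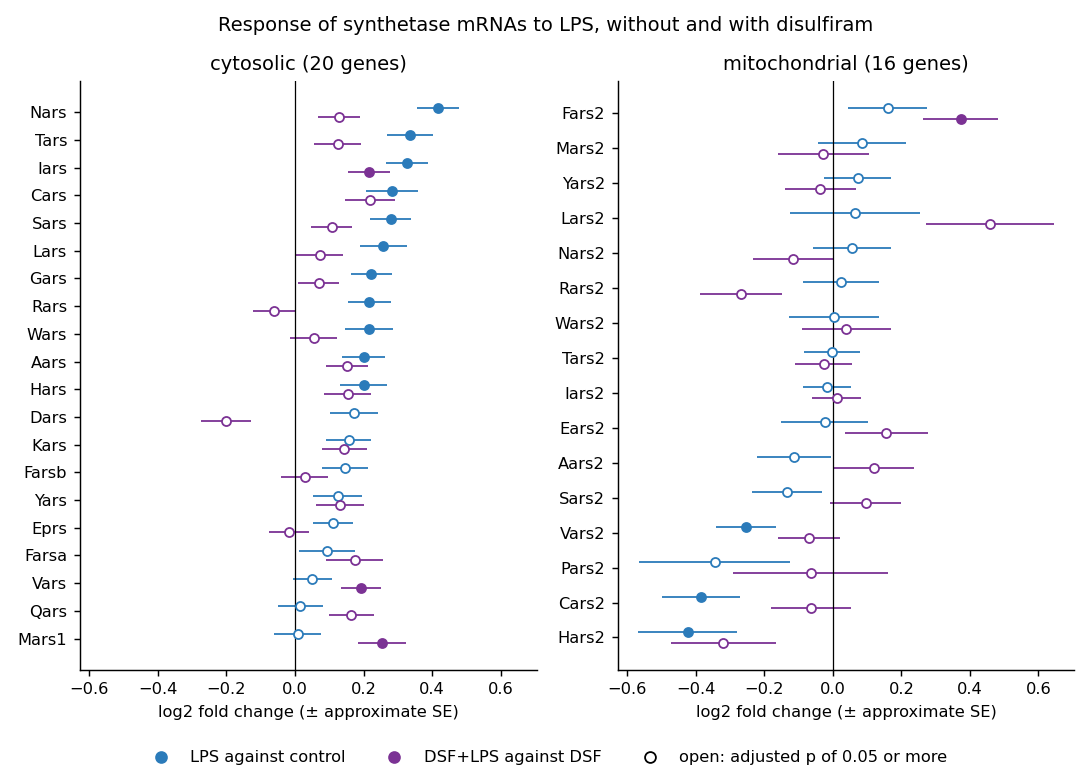
Log2 fold change (horizontal axis) with approximate SE of 20 cytosolic and 16 mitochondrial synthetase genes for LPS against control and DSF+LPS against DSF; open points have an adjusted p of 0.05 or more. The 20 cytosolic points for LPS against control lie right of 0 with TMM scaling, up to 0.42 for Nars, and with library size alone 8 of these genes lie below 0.

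LPS given after the drug changed few members. In DSF+LPS against DSF 5.53% of all genes rose and 6.53% fell. Of the members 3 cytosolic genes (15%) and 1 mitochondrial gene (6.25%) rose and 0 fell; at an unadjusted p under 0.05 in edgeR 1 cytosolic and 1 mitochondrial genes were lower, and DESeq2 called 0 and 0 falls. Mars1 had 262 and 252 CPM in DSF+LPS, against 212 and 218 CPM in DSF (log2 fold change 0.25, SE 0.069, adjusted p = 0.0283). Iars had 572 and 573 CPM in DSF+LPS, against 478 and 508 CPM in DSF (log2 fold change 0.22, SE 0.061, adjusted p = 0.0336). The values of Mars1 and Iars did not overlap between the groups. Vars had 467 and 469 CPM in DSF+LPS, against 408 and 411 CPM in DSF (log2 fold change 0.19, SE 0.057, adjusted p = 0.0418). Fars2 had 31.8 and 33.1 CPM in DSF+LPS, against 25.7 and 24.3 CPM in DSF (log2 fold change 0.37, SE 0.11, adjusted p = 0.0392). All 4 calls were lost without the first DSF library and with library size alone, which shifted the median of all genes by -0.11 and where the values of Mars1, Iars, Vars and Fars2 were 0.15, 0.11, 0.087 and 0.27.

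The interaction compares the LPS response after DSF with that after DMSO, as a difference of log2 fold changes. It was called for 3 cytosolic genes, all negative (15%), and for 0 mitochondrial genes. Over all genes 7.58% were called positive and 12.2% negative, so the cytosolic share was near that of all genes. At an unadjusted p under 0.05 in edgeR 0 mitochondrial genes were positive and 0 negative, and DESeq2 called 0 and 0. Dars had 107 and 108 CPM in DSF+LPS and 122 and 125 CPM in DSF, against 175 and 179 CPM in LPS and 150.1 and 164 CPM in control (interaction -0.37, SE 0.10, adjusted p = 0.0168). The drug lowered Dars more in LPS-treated cells. For Nars the drug's log2 fold change was 0.88 in LPS-treated cells and 1.17 without LPS (interaction -0.29, SE 0.086, adjusted p = 0.0277). For Rars these values were 0.43 and 0.71 (interaction -0.28, SE 0.088, adjusted p = 0.038). The Dars call was lost without the first control library, either DSF library or the second LPS library, and the Nars and Rars calls were lost in 7 and 9 of 13 alternatives.

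Summed over the enzymes of a compartment, cytosolic synthetase mRNA stood higher in the drug groups. Cytosolic genes took 0.718% and 0.735% in DSF+LPS, 0.724% and 0.728% in DSF, 0.558% and 0.556% in LPS, and 0.545% and 0.543% in control of library counts. Their summed level was 7751 ± 184 CPM in DSF+LPS, 7198 ± 115 CPM in DSF, 5736 ± 75.7 CPM in LPS, and 5019 ± 11.6 CPM in control. The 4 libraries with the drug stood above the 4 without it. Mitochondrial genes summed to 831 ± 129.8 CPM in DSF+LPS, 737 ± 11.4 CPM in DSF, 775 ± 33.7 CPM in LPS, and 795 ± 15.9 CPM in control, and the DSF+LPS libraries spanned the values of the LPS and control libraries. With library size alone in place of TMM these sums were 696 and 861 in DSF+LPS and 850 and 873 in control. The DSF+LPS libraries then no longer spanned the control values, so this order depends on the scaling. The ratio of cytosolic to mitochondrial counts was 10.3 and 8.54 in DSF+LPS, 9.77 and 9.77 in DSF, 7.71 and 7.11 in LPS, and 6.42 and 6.22 in control. Without Lars2, chosen after its replicate spread was seen, the ratio was 16.2 and 15.9 in DSF+LPS, 14.4 and 15.4 in DSF, 9.04 and 9.02 in LPS, and 7.61 and 7.58 in control, and the DSF+LPS replicates lay closer together.

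**Figure D5:**
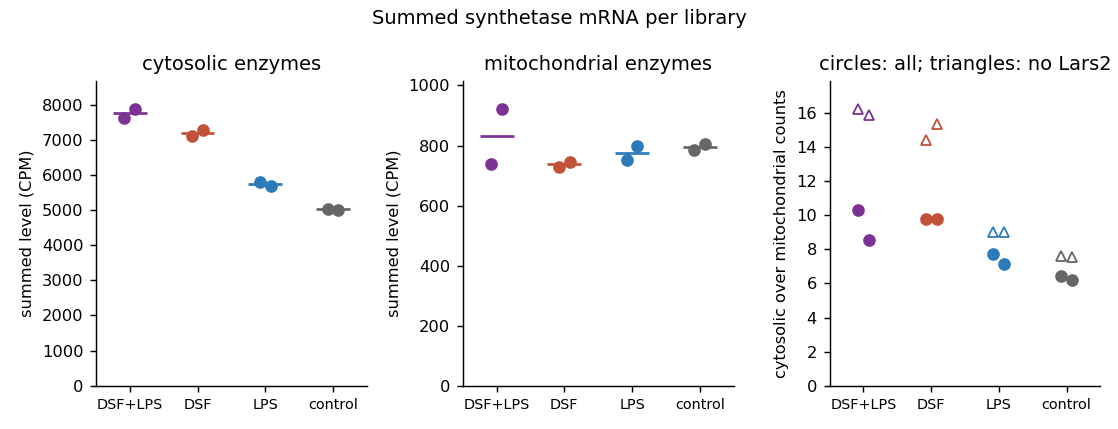
Summed level in CPM (left and middle, axes from 0) of 20 cytosolic and 16 mitochondrial synthetase genes in each library (points, 2 per group) with the group mean (line), and the ratio of cytosolic to mitochondrial counts (right) with all members (circles) and without Lars2 (triangles). The ratio is 8.54 or more in the drug libraries and 7.71 or less in the others.

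Genes that work beside the synthetases were counted in lists chosen for their function, with earlier results of these data known. Of all genes, 31.0% rose and 27.1% fell in DSF against control, and 33.7% and 31.6% in DSF+LPS against LPS. The list of other mitochondrial charging genes, which also holds Tars3, had 5 of 5 genes fall in DSF against control (median -0.60) and 4 of 5 in DSF+LPS against LPS. Gatc, which encodes a subunit of the amidotransferase, averaged 18.2 ± 0.592 CPM in DSF and 38.2 ± 3.41 CPM in control (log2 fold change -1.06, SE 0.11, adjusted p = 1.14e-06). Of 8 mitochondrial translation factor genes 7 fell in each drug comparison, such as Tsfm, by 0.71 in DSF against control and 0.60 in DSF+LPS against LPS. Of 5 cytosolic elongation factor genes 3 rose in DSF against control and 5 in DSF+LPS against LPS, Eef2 by 0.46 and 0.65. Of 12 genes of tRNA processing and export 2 rose and 8 fell in DSF against control, and of 4 editing and proofreading genes 3 fell (Aarsd1, Dtd2 and Prorsd1). Without the first control library the Dtd2 and Prorsd1 calls were lost (adjusted p = 0.221 and 0.0613), without the second control library the Aarsd1 call (0.191), without the first DSF library the Dtd2 call (0.0872), without the second DSF library the Aarsd1 and Dtd2 calls (0.137 and 0.051), and DESeq2 called neither Aarsd1 nor Dtd2. Among the scaffold genes 1 of 3 fell in DSF against control, near the share of all genes, and 2 of 3 in DSF+LPS against LPS.

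Genes of amino acid supply and of the integrated stress response were counted as well, in lists chosen in the same way. For comparison, 31.0% of all genes rose and 27.1% fell in DSF against control, and 33.7% and 31.6% in DSF+LPS against LPS. Atf4 averaged 485 ± 2.02 CPM in DSF and 248 ± 8.23 CPM in control (log2 fold change 0.97, SE 0.065, adjusted p = 1.37e-08). In LPS-treated cells it averaged 531 ± 33.4 CPM in DSF+LPS and 322 ± 1.805 CPM in LPS (log2 fold change 0.72, SE 0.064, adjusted p = 1.79e-07). Of the 17 genes of the stress response list 13 rose and 3 fell in DSF against control (median 1.82), and 12 rose and 4 fell in DSF+LPS against LPS. The shares that fell, 17.6% and 23.5%, were below those of all genes. All 9 amino acid transporter genes rose in both drug comparisons (medians 1.22 and 1.25). Of 14 genes of amino acid synthesis and one-carbon metabolism 12 rose in DSF against control, among them Asns, which makes asparagine, by 1.26, and 13 rose in DSF+LPS against LPS.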

How the data were processed

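Messenger RNA of 8 iBMDM libraries was read from a single table of raw gene counts, whole numbers as the authors deposited them. The submitters' processing notes name the build GRCm39 and DESeq2 without their roles; aligner, counter, annotation and strand handling: not given in the sources used here. Of 55414 identifiers 52081 matched a symbol. Transcript lengths for levels per kilobase (longest principal transcript) and exon overlaps came from GENCODE (GRCm38), promoter sequences from RefSeq (GRCm38.p6); protein sequences were not used here.

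Counts were tested with edgeR 4.0.16 in R 4.3.3: TMM scaling, filterByExpr defaults (minimum count 10, minimum total 15), a quasi-likelihood fit of all 8 libraries with a mean per group, and Benjamini-Hochberg adjustment over 16304 genes per comparison (threshold 0.05). The common biological coefficient of variation was 7.85%. SE is approximate, taken as |log2 fold change| over the root of F. Totals of 17822041 to 21694922 counts set the counting precision. No library repeated another: chi-square over degrees of freedom between replicates was 3.88 to 13.4. The fit was run on simulated counts in which few genes changed, equally up and down. That setting differs from the drug comparisons, so it cannot test the scaling or the calls under such broad change.

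Members and lists were chosen with earlier results of these data known. Values per sample are given for up to 6 cytosolic and 4 mitochondrial called genes with the largest change in a comparison, for Farsa and Farsb, and for genes called in the interaction; of each companion list up to 3 called genes may be named, and Atf4, Aimp1, Aimp2 and Eef1e1 are named throughout. One gene planned for a companion list is not reported here. Values per sample or group of Ddit3, of Mars1 in DSF+LPS against LPS, of Vars, Fars2 and Ears2 in DSF against control and of Wars in LPS against control were added after they were seen. Alternatives were DESeq2 1.42.0, library size alone, relative log expression, no filter, the groups of the comparison alone, a replicate block, each library left out, and the stricter motif.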

Additional observations from a re-analysis of the deposited data

Results flagged for a closer look

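Each gene below is listed because edgeR's interaction test found different LPS responses after DSF and after DMSO (log2 units, negative where the response after DSF was the lower one). Among the synthetases these were Dars (-0.37), Nars (-0.29) and Rars (-0.28), described above. Eef1e1, a scaffold gene of the multi-synthetase complex, had -0.67 and averaged 84.2 ± 5.02 CPM in DSF+LPS, 79.2 ± 2.44 CPM in DSF, 129 ± 3.18 CPM in LPS and 76.5 ± 1.08 CPM in control. The tRNA processing genes Elac1 and Ssb had -0.54 and -0.56; the Elac1 call was lost in 10 of 13 alternatives, among them DESeq2, library size alone and each library left out except the second of DSF+LPS (largest adjusted p 0.155), and the Ssb call in 0. Ssb, whose protein binds the ends of new tRNA transcripts, averaged 110.4 ± 11.2 CPM in DSF+LPS, 156 ± 3.88 CPM in DSF, 205 ± 7.14 CPM in LPS and 196 ± 3.54 CPM in control. Of the 17 stress response genes 2 were called positive and 7 negative, where 7.58% and 12.2% of all genes were. The 3 with the largest values are named. Eif2ak2, which encodes a kinase that senses double-stranded RNA, had -1.72, Atf3 had -0.93 and Ddit4 had 2.41. Of the 14 genes of amino acid synthesis and one-carbon metabolism 2 were called positive and 2 negative, and the largest 3 are named. Of the amino acid genes, Mthfd2 had -0.38, Cth -1.25, Glul 0.85, Slc7a11 -3.28 and Slc7a1 -0.33; the Slc7a1 call was lost in 7 of 13 alternatives, which were library size alone and each library left out except the second control and the second DSF+LPS library (largest adjusted p 0.173). Slc7a11, the cystine carrier gene, averaged 397 ± 61.7 CPM in DSF+LPS, 411 ± 40.7 CPM in DSF, 129.97 ± 6.804 CPM in LPS and 13.9 ± 0.873 CPM in control.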

How the results depend on the processing

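In both drug comparisons the counts of members stayed within 1.5 times of the reported ones under every alternative run: 11 to 12 cytosolic genes rose and 5 to 6 fell, and 2 to 3 mitochondrial genes rose and 8 to 11 fell. Counts with LPS moved. In LPS against control 2 cytosolic genes rose with library size alone; with 1 library left out 4 to 11 rose, 0 to 3 mitochondrial genes fell and 3146 to 5545 genes were called. In DSF+LPS against DSF library size alone gave 0 cytosolic rises, 1 fall and 0 mitochondrial rises, and the groups of the comparison alone gave 524 genes with 0 cytosolic and 0 mitochondrial rises. With 1 library left out 399 to 2406 genes were called there, with 0 to 4 cytosolic rises, 0 to 2 mitochondrial rises and 0 to 1 mitochondrial falls. In the interaction library size alone gave 1 cytosolic call above 0 and 1 below, no filter gave 1 mitochondrial call above 0, and with 1 library left out 2003 to 3797 genes were called, with 0 to 3 cytosolic calls below 0, 0 to 1 above and 0 to 1 mitochondrial calls above. The differences of replicate 2 from replicate 1 correlated between groups at -0.119 to 0.0531. These weak correlations gave no clear sign of pairing by number, and cannot show how the libraries were prepared. The replicate block moved the mitochondrial rises of DSF+LPS against DSF to 2. The crossed pairing, added after seeing the data, called 2060 genes and 3 members there. Of the estimates that changed sign, that of Eef2 in LPS against control had been called (0.16, adjusted p = 0.036), and the others had not. In DSF against control Farsb was 0.00481 with DESeq2, 0.004808 with relative log expression and 0.004428 with the groups alone. With library size alone Aimp1 and Eef1e1 were -0.05803 and -0.05439 in DSF against control, Aimp1, Aimp2 and Eef2 -0.102, -0.0647 and -0.002773 in LPS against control, Aimp2 and Eef1e1 -0.04453 and -0.01602 in DSF+LPS against DSF, and Aimp2 0.02017 in the interaction. With 1 library left out, Aimp1 and Eef1e1 ran from -0.01495 to 0.05137 and -0.01138 to 0.05506 in DSF against control, and Aimp2 from -0.08649 to 0.02647 in the interaction. Apart from fewer samples in the left-out fits, the cause was not tested.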
